A study of Homo sapiens with 12 samples.

Results

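The core circadian clock of HT29 cells, a human colorectal adenocarcinoma line, was described here by 10 genes given by name: CLOCK, BMAL1 (ARNTL in older annotations), PER1, PER2, PER3, CRY1, CRY2, NR1D1, NR1D2 and DBP. All 10 were found among the 60675 gene IDs of the count table, and all 10 passed the filter on low counts. HT29 cells received vehicle, which was PBS with 2% DMSO, or the water extract of Aconitum carmichaeli Debeaux (ACD) at 20, 100 or 500 µg/mL. The extract was given in PBS with 2% DMSO as well, so all groups shared this solvent. RNA was taken after 24 h, and each of the 4 groups had 3 libraries. The line stands for colon epithelium as a tumour-derived model only. The labels do not say whether the libraries of a group came from separate cultures, so p-values measure the spread between these libraries, which may be technical.

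The molecular clock is a feedback loop. CLOCK and BMAL1 form a heterodimer that binds E-boxes and activates the PER and CRY genes, whose proteins return to the nucleus and inhibit the heterodimer. In an interlocking loop, the REV-ERB nuclear receptors NR1D1 and NR1D2 bind RRE elements and repress BMAL1, while ROR receptors activate it. DBP is a PAR bZIP factor that is transcribed from E-boxes and acts on D-boxes of output genes. Clock transcripts in tissues and in synchronized cells rise and fall over the day, so with a single time point a difference in level and a shift in phase cannot be told apart.

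The 12 libraries held 15941255 to 33866644 expected counts each, with a median of 23833237. Expression is given as CPM, the count of a gene relative to the size of its library, with library sizes scaled by TMM. All 11 markers of colon epithelium had a mean of at least 1 CPM, against 2 of 6 markers of fibroblasts, 1 of 5 of leukocytes, 1 of 4 of endothelium and 0 of 5 of astrocytes. High-dose replicate 2 stood apart: the SD over genes of its log2 difference from its group was 0.50, against 0.10 to 0.29 in the other libraries. Results that rest on it are therefore given with and without it. Mitochondrially encoded transcripts took 14.0% to 16.6% of the counts at the high dose and 7.41% to 11.0% in the other groups, and with mitochondrial genes left out of the library sizes BMAL1 had an adjusted p of 0.0366 at 500 µg/mL and 0.0196 in the trend, and remained the only clock gene under 0.05 in either.

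With all libraries, BMAL1 was the only clock gene that changed by the test, and it rose with the dose. The level in the 3 vehicle libraries was 8.81, 10.0 and 10.5 CPM. At 20 µg/mL it was 9.93, 12.5 and 11.0 CPM, at 100 µg/mL 11.6, 12.6 and 12.7 CPM, and at 500 µg/mL 13.6, 12.3 and 13.2 CPM. Each library at the medium and high doses lay above all 3 vehicle libraries, which held for 14.5% and 10.5% of all genes tested, whereas the low dose overlapped with vehicle. The gene BMAL1 (ENSG00000133794) encodes the partner of CLOCK and lies on the plus strand of chromosome 11 at 13276652 to 13387266 (GRCh38), with 421 exon bases shared with an unnamed lncRNA on the other strand.

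At 500 µg/mL, the log2 fold change of BMAL1 against vehicle was 0.41 (SE 0.10, 95% interval 0.19 to 0.64), a fold of 1.33, with an adjusted p of 0.0357 in the quasi-likelihood test of edgeR. It was 0.33 at 100 µg/mL (adjusted p = 0.211) and 0.19 at 20 µg/mL (adjusted p = 0.707), where 1.01% and 0.124% of all genes had an adjusted p under 0.05. In the dose trend, which takes vehicle and the 3 doses as equal steps, BMAL1 rose by 0.14 on the log2 scale per step (SE 0.03, adjusted p = 0.0188). An adjusted p under 0.05 was met by 5.77% of all genes tested at 500 µg/mL and by 5.74% in the trend, so that 1 of 10 clock genes is close to the background share. As the clock genes were chosen with earlier results of these data known, this is a description. In these bulk libraries, more cells with the transcript and more transcript per cell cannot be told apart.

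The direction of BMAL1 held in all 21 alternative settings at 500 µg/mL, with log2 fold changes of 0.35 to 0.47, but its adjusted p was under 0.05 in 9 of them and ranged from 0.00625 to 0.182. Leaving out 1 library moved the adjusted p above 0.05 for vehicle replicates 1 to 3 (0.117, 0.0941 and 0.0525) and low replicate 3 (0.0505). The same held for medium replicates 1 to 3 (0.0517, 0.0511 and 0.0525) and high replicates 1 and 3 (0.0960 and 0.0975). Without high replicate 2 it was 0.00625, and the medium dose then had an adjusted p of 0.0452, in a fit in which 6.87% of all genes at that dose were under 0.05. The trend kept an adjusted p under 0.05 in 16 of 19 settings, and it was 0.0506 without vehicle replicate 1, 0.0588 without high replicate 1 and 0.0560 without high replicate 3.

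**Figure D1:**
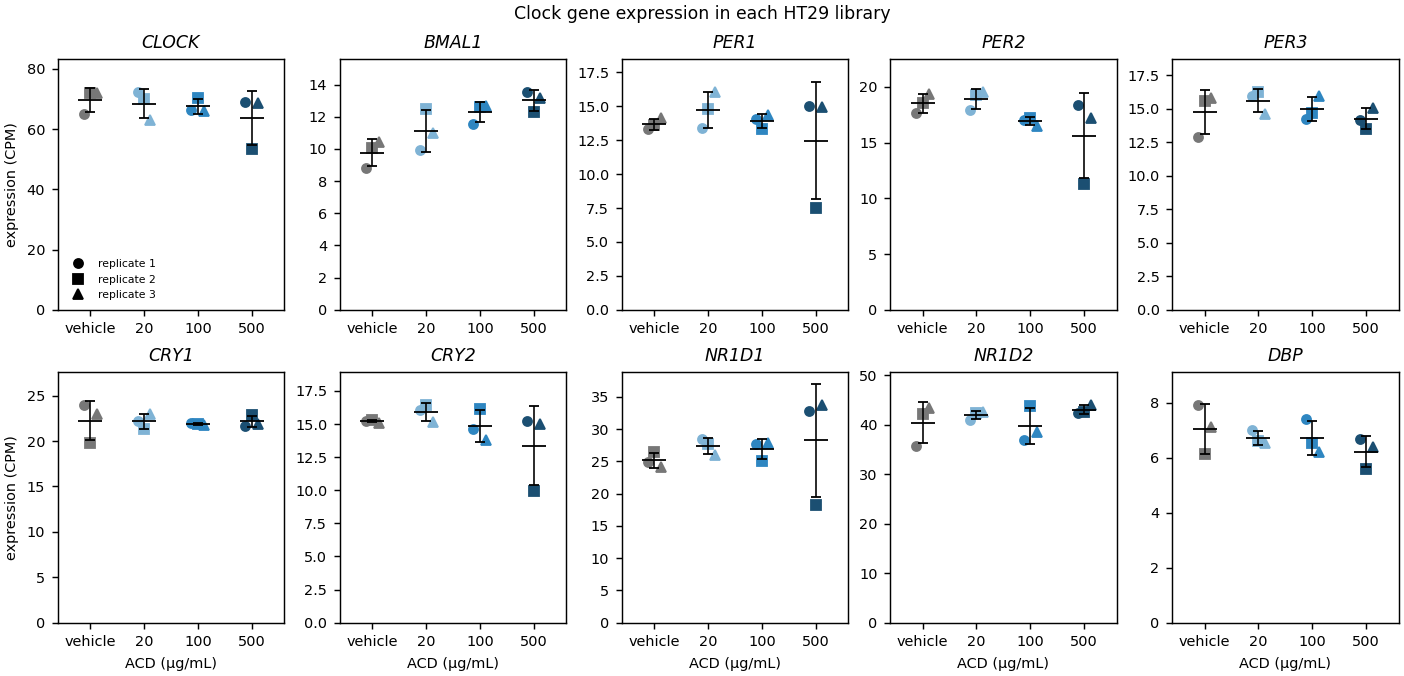
Expression of the 10 clock genes in CPM (vertical axes, each starting at 0) by ACD dose in µg/mL. Points are single libraries with a symbol for each replicate number, and bars are the mean and SD of 3 libraries. BMAL1 rises from 8.81 to 10.5 CPM in vehicle to 12.3 to 13.6 CPM at 500 µg/mL, and replicate 2 of the high dose lies low for PER1, PER2, CRY2 and NR1D1.

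CLOCK, the partner of BMAL1, did not pass the test. CLOCK (ENSG00000134852), the other bHLH-PAS subunit of the activator pair, had 64.9, 71.9 and 72.1 CPM in vehicle, 72.4, 69.9 and 63.1 CPM at 20 µg/mL, 66.3, 70.3 and 65.9 CPM at 100 µg/mL and 69.1, 53.4 and 68.8 CPM at 500 µg/mL. Each dose overlapped with vehicle, replicate 2 of the high dose was the lowest library, and the log2 fold change was −0.12 (95% interval −0.34 to 0.09, adjusted p = 0.543) at 500 µg/mL and −0.02 (adjusted p = 0.898) without that library. The ratio of CLOCK to BMAL1 CPM within a library was 7.38, 7.17 and 6.89 in vehicle, 7.29, 5.59 and 5.76 at 20 µg/mL, 5.73, 5.57 and 5.21 at 100 µg/mL and 5.10, 4.33 and 5.22 at 500 µg/mL. The ratio was lower in every library of the medium and high doses than in any vehicle library, which is given as a description. CLOCK lies on the minus strand of chromosome 4 at 55427903 to 55546909, and shares 76 exon bases with TMEM165 on the other strand.

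The promoter sequences of BMAL1 and NR1D1 are shown because BMAL1 changed and NR1D1 encodes the repressor that reads the RRE of BMAL1. Both are RefSeq windows of 250 bases before to 50 after a transcription start on GRCh38.p14, written 5′ to 3′ on the strand of the gene, with chr11:13277540-13277839 on the plus strand for BMAL1 and chr17:40100540-40100839 on the minus strand for NR1D1. Capitals mark the match to the searched RRE letters in BMAL1 and the E-prime box, read on the other strand, in NR1D1.
BMAL1: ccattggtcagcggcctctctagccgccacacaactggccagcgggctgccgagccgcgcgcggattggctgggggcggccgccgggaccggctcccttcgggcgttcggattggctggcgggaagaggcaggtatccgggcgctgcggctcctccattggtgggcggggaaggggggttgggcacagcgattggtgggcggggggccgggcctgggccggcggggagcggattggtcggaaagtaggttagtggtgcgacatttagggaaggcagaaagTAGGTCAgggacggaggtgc
NR1D1: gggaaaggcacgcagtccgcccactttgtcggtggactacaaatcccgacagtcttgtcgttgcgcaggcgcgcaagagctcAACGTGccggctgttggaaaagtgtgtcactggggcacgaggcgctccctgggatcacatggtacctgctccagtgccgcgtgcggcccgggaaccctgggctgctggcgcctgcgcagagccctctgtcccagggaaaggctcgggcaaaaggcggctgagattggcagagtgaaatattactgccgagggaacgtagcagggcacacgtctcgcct

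The only match to the searched RRE letters in this window of BMAL1 (TAGGTCA) lies at bases 31 to 37 after the start. Other forms of the RRE were not searched. The motifs searched on both strands were the E-box CACGTG, the E-prime box CACGTT, the D-boxes TTATGTAA and TTACGTAA and the RREs TAGGTCA and TGGGTCA, and no matches overlapped each other in the clock gene windows. RefSeq gave 15 windows for the 10 genes, and the other window of BMAL1 held no match. The E-box was found in NR1D2 and PER1, the E-prime box in CLOCK, CRY1, CRY2, NR1D1 and PER2, the D-box in NR1D2, PER2 and PER3, and the RRE in BMAL1, CLOCK, CRY2 and NR1D2. By window, 2 of the 15 held the E-box, 5 the E-prime box, 3 a D-box and 4 an RRE. Of all 35116 windows of this length, 7.26% held the E-box, 5.34% the E-prime box, 1.01% a D-box and 5.69% an RRE. The RRE genes CLOCK, CRY2 and NR1D2 had log2 fold changes of −0.12, −0.17 and 0.09 at 500 µg/mL, and none of them passed the test. A match in these windows is a description of the letters and not a measured binding site.

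The PER genes, which encode repressors that act together with the cryptochromes, did not pass the test at any dose. PER1 (ENSG00000179094, chromosome 17, 8140472 to 8156506, minus strand), which is also an immediate responder to light and glucocorticoids, had 13.3, 13.6 and 14.1 CPM in vehicle, 13.4, 14.8 and 16.1 CPM at 20 µg/mL, 14.1, 13.4 and 14.4 CPM at 100 µg/mL and 15.0, 7.50 and 14.9 CPM at 500 µg/mL. Replicates 1 and 3 of the high dose lay above all vehicle libraries and replicate 2 far below them, and the log2 fold change was −0.10 (SE 0.19, adjusted p = 0.824) with replicate 2 and 0.13 (SE 0.09, adjusted p = 0.314) without it. The direction of PER1 at the high dose thus turned with that library.

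PER2 (ENSG00000132326, chromosome 2, 238244044 to 238290102, minus strand), whose loss disturbs daily rhythms in mice, had 17.7, 18.6 and 19.3 CPM in vehicle. It had 17.9, 19.3 and 19.6 CPM at 20 µg/mL, 17.0, 17.2 and 16.5 CPM at 100 µg/mL and 18.4, 11.3 and 17.2 CPM at 500 µg/mL. All 3 medium libraries lay below vehicle, as was the case for 14.1% of all genes tested, and the high dose overlapped with it. The log2 fold change was −0.13 at 100 µg/mL (adjusted p = 0.755) and −0.23 at 500 µg/mL (95% interval −0.53 to 0.07, adjusted p = 0.384). Without high replicate 2 the latter was −0.06 (adjusted p = 0.590). In the trend the change was −0.09 per step (adjusted p = 0.268), and it was −0.08 with an adjusted p of 0.0335 in a fit, chosen after seeing the data, that corrects each library for transcript length and GC content.

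PER3 (ENSG00000049246, chromosome 1, 7784291 to 7845177, plus strand), the member that is least needed for rhythm, had 12.9, 15.6 and 15.8 CPM in vehicle, 15.9, 16.3 and 14.6 CPM at 20 µg/mL, 14.2, 14.7 and 16.0 CPM at 100 µg/mL and 14.2, 13.5 and 15.1 CPM at 500 µg/mL. Every dose overlapped with vehicle, and the log2 fold change at 500 µg/mL was −0.05 (adjusted p = 0.833). PER3 shares 868 exon bases with UTS2, which had no counts in these libraries.

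The cryptochromes, the strongest repressors of the loop, did not pass the test at any dose either. CRY1 (ENSG00000008405, chromosome 12, 106991364 to 107093549, minus strand) had 24.0, 19.8 and 23.0 CPM in vehicle, 22.3, 21.3 and 23.0 CPM at 20 µg/mL, 22.0, 21.9 and 21.8 CPM at 100 µg/mL and 21.7, 22.9 and 21.9 CPM at 500 µg/mL. All 3 doses lay inside the range of vehicle, and the log2 fold change was −0.0042 (95% interval −0.18 to 0.17, adjusted p = 0.987) at 500 µg/mL. CRY1 had the smallest spread of the group means among the clock genes, with the highest mean 1.02 times the lowest.

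CRY2 (ENSG00000121671, chromosome 11, 45847118 to 45883248, plus strand) had 15.3, 15.3 and 15.1 CPM in vehicle, 16.0, 16.5 and 15.1 CPM at 20 µg/mL, 14.7, 16.2 and 13.8 CPM at 100 µg/mL and 15.2, 9.91 and 15.0 CPM at 500 µg/mL. Replicates 1 and 3 of the high dose lay at the level of vehicle and replicate 2 below it, and the log2 fold change was −0.17 (adjusted p = 0.541) with it and −0.01 (95% interval −0.18 to 0.16, adjusted p = 0.951) without it.

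NR1D1 was the clock gene that gained an adjusted p under 0.05 at 500 µg/mL when the library that stood apart was left out. It encodes REV-ERBα, a heme-binding repressor of BMAL1. NR1D1 (ENSG00000126368) lies on the minus strand of chromosome 17 at 40092793 to 40100589. It had 25.0, 26.4 and 24.2 CPM in vehicle, 28.4, 27.7 and 26.1 CPM at 20 µg/mL, 27.7, 25.1 and 27.8 CPM at 100 µg/mL and 32.9, 18.2 and 33.8 CPM at 500 µg/mL. Replicates 1 and 3 of the high dose were the highest of all 12 libraries, and replicate 2 was the lowest.

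With all libraries, the log2 fold change of NR1D1 at 500 µg/mL was 0.18 (SE 0.17, adjusted p = 0.623). Without high replicate 2 it was 0.40 (SE 0.07, 95% interval 0.25 to 0.55, adjusted p = 8.36e-04), and the trend was 0.11 per step (adjusted p = 0.00852). In that fit 18.7% of all genes had an adjusted p under 0.05 at 500 µg/mL and 17.5% in the trend, against 2 of 10 clock genes in each, BMAL1 and NR1D1. NR1D1 shares 473 exon bases with THRA, which encodes the thyroid hormone receptor α on the other strand, and the strand setting of the counting is not given in the sources used here. THRA had 56.8, 60.1 and 59.9 CPM in vehicle and 70.7, 38.9 and 72.5 CPM at 500 µg/mL, and its log2 fold change without high replicate 2 was 0.28 (adjusted p = 0.00360). Within a library, the ratio of NR1D1 to THRA was 0.428 ± 0.0212 (SD, n = 3) in vehicle and 0.466 ± 0.00130 (SD, n = 3) at 500 µg/mL, so that the pair stood at nearly the same ratio in the library where both were low. How reads in the shared bases were divided between them cannot be told apart here.

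NR1D2 (ENSG00000174738, chromosome 3, 23945286 to 23980617, plus strand), which encodes the paralog REV-ERBβ, had 35.7, 42.2 and 43.3 CPM in vehicle, 41.0, 42.4 and 42.5 CPM at 20 µg/mL, 36.9, 43.7 and 38.4 CPM at 100 µg/mL and 42.4, 42.5 and 44.0 CPM at 500 µg/mL. The groups overlapped, and the log2 fold change was 0.09 (95% interval −0.10 to 0.28, adjusted p = 0.640) with all libraries and 0.09 (adjusted p = 0.456) without high replicate 2. DBP (ENSG00000105516, chromosome 19, 48630030 to 48637379, minus strand), the output factor, had 7.93, 6.12 and 7.12 CPM in vehicle, 7.01, 6.62 and 6.54 CPM at 20 µg/mL, 7.39, 6.53 and 6.22 CPM at 100 µg/mL and 6.66, 5.59 and 6.40 CPM at 500 µg/mL. These groups overlapped as well, and the log2 fold change was −0.16 (95% interval −0.42 to 0.09, adjusted p = 0.497). DBP shares 661 exon bases with SPHK2 on the other strand.

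**Figure D2:**
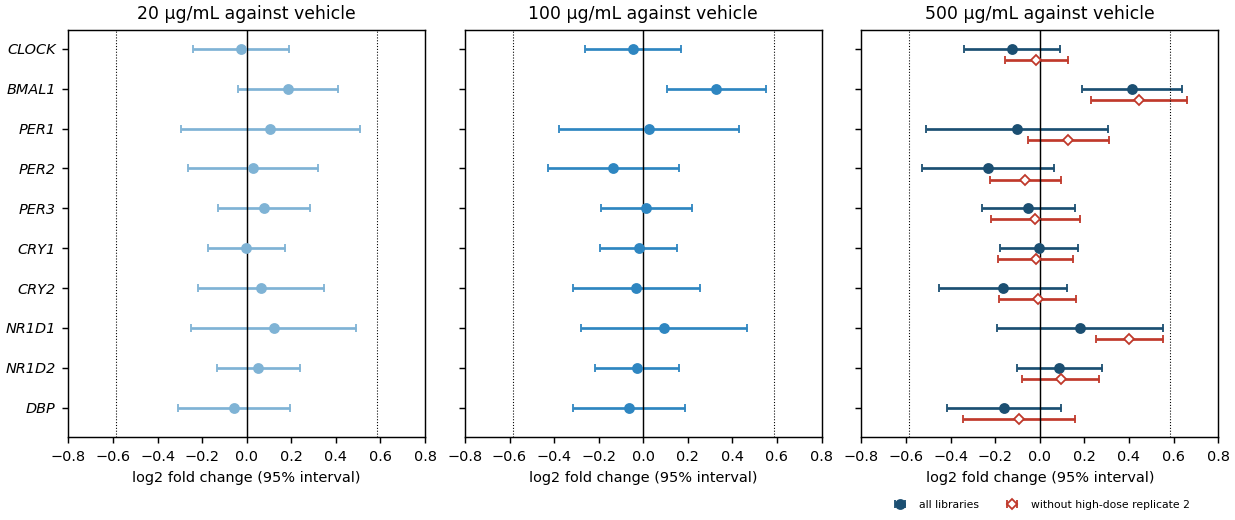
Log2 fold change of each clock gene against vehicle (horizontal axis) with its 95% interval, in a panel for each dose, with dotted lines at a fold of 1.5. Open diamonds give the 500 µg/mL fit without high-dose replicate 2, in which the intervals of BMAL1 (0.23 to 0.66) and NR1D1 (0.25 to 0.55) lie above 0.

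Under the rule of an adjusted p under 0.05 and a fold over 1.5, 0 of 10 clock genes were called at 500, 100 or 20 µg/mL by edgeR, and 0 by DESeq2 in either of its fits. Of all genes tested, 2.93%, 0.676% and 0.111% were called at these doses. At an unadjusted p under 0.05 there was 1 clock gene at 500 µg/mL, 1 at 100 µg/mL and 0 at 20 µg/mL, and BMAL1 was the gene at both doses, against 20.1%, 11.7% and 7.95% of all genes. For the 9 other clock genes, all 95% intervals covered 0 at each dose and lay within a fold of 1.5 in either direction. The widest bounds were those of PER2 and NR1D1 at 500 µg/mL, at log2 fold changes of −0.53 and 0.55. The median log2 fold change of the 10 genes at 500 µg/mL was −0.08, with 3 above 0 and 7 below it, against a median of 0.01 over all genes. Without high replicate 2 it was −0.01, with 4 above 0 and 6 below it, and the median over all genes was −0.01.

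The groups were also compared with each other for every clock gene, at first with all libraries. Of the 60 contrasts between pairs of groups, 1 had an adjusted p under 0.05, which was BMAL1 at the high dose against vehicle. An unadjusted p under 0.05 was met by 3 of the 60. Over all genes, it was met by 20.1% for high and 11.7% for medium against vehicle, and by 15.4% for high against low. Between doses, 0.143% of all genes had an adjusted p under 0.05 for medium against low, 0.891% for high against medium and 2.98% for high against low. None of the 30 contrasts between neighbouring doses had an unadjusted p under 0.05 with all libraries. These were vehicle to low, low to medium and medium to high, where 7.95%, 3.52% and 9.85% of all genes did. Without high replicate 2, NR1D1 was higher on the log2 scale at high than at medium (0.31, adjusted p = 0.0252) and low (0.28, adjusted p = 0.0196). Of all genes, 2.12% and 7.29% had an adjusted p under 0.05 in these contrasts. PER2 was lower at medium than at low in that fit (−0.16, unadjusted p = 0.0282, adjusted p = 0.612). The order of the BMAL1 means ran from vehicle through low and medium to high, but no neighbours in it differed by the test.

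Clock genes were compared with one another only per length, as CPM per kb of the canonical transcript, which takes 1 transcript for each gene. In vehicle, NR1D1 was highest with 9.58 ± 0.435 CPM per kb (SD, n = 3), followed by NR1D2 with 7.72 ± 0.781, CRY1 with 7.45 ± 0.735 and CLOCK with 6.65 ± 0.388. CRY2 (3.68 ± 0.0206), BMAL1 (3.50 ± 0.308), DBP (3.25 ± 0.416), PER1 (2.92 ± 0.0849) and PER2 (2.90 ± 0.131) followed, and PER3 was lowest with 2.32 ± 0.258. Libraries overlapped between neighbours in this order except between NR1D1 and NR1D2, between CLOCK and CRY2 and between PER2 and PER3. At 500 µg/mL, BMAL1 had 4.67 ± 0.228 CPM per kb and stood above CRY2, at 3.24 ± 0.728.

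High replicate 2 was low for 4 of the 10 clock genes by at least 0.5 on the log2 scale against the mean of high replicates 1 and 3, namely PER1, PER2, CRY2 and NR1D1. The share of genes with at least 5 CPM that were this low was 14.9%. The library held 0.502 of the PER1 level, 0.546 of NR1D1, 0.633 of PER2 and 0.656 of CRY2, and 1.05 of CRY1, 0.985 of NR1D2 and 0.921 of BMAL1. It was the lowest of the 12 libraries for 6 clock genes (CLOCK, PER1, PER2, CRY2, NR1D1 and DBP), against 30.6% of the genes tested. Over 10589 genes, the log2 difference of this library from its group had a Spearman correlation of −0.57 with transcript length and −0.30 with GC content, across genes, which are not independent replicates. GC content was 52.4% to 62.7% in the transcripts of the 4 low genes and 65.2% in DBP, and 37.6% to 46.5% in the 5 others. The transcripts of the 4 low genes were 2630 to 6380 bases long and those of the 6 others 2170 to 10470 bases. What made these genes low in this library was not tested. With the correction for transcript length and GC content, the log2 fold change of NR1D1 at 500 µg/mL was 0.13 (adjusted p = 0.589) and that of BMAL1 was 0.37 (adjusted p = 0.0384).

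**Figure D3:**
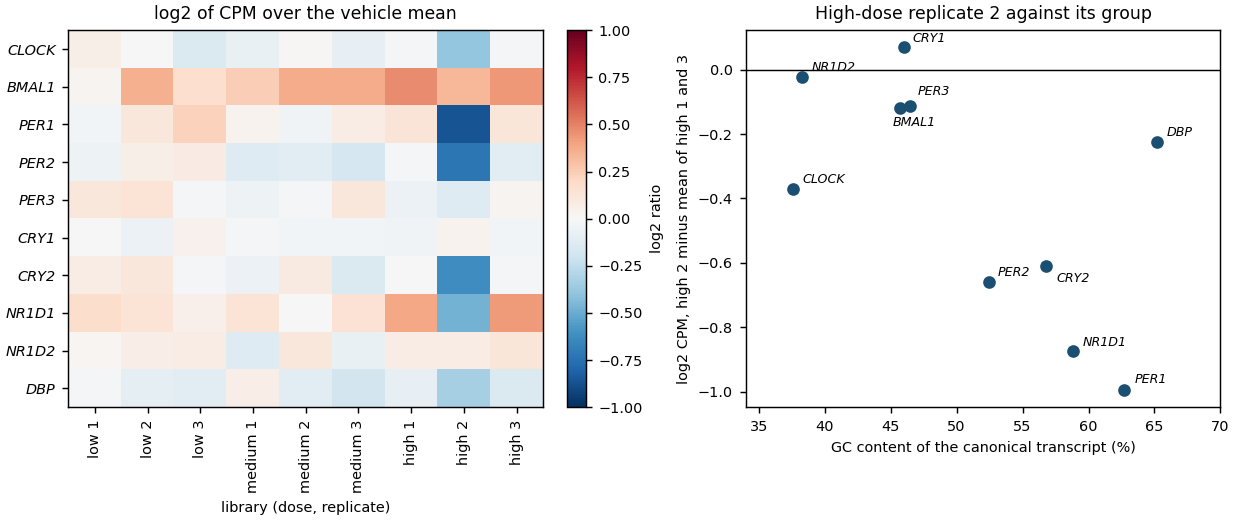
Left, log2 ratio of the CPM in each treated library to the vehicle mean, by clock gene (rows) and library (columns). Right, log2 difference of high-dose replicate 2 from the mean of replicates 1 and 3 (vertical axis) against the GC content of the canonical transcript in % (horizontal axis). BMAL1 stays above the vehicle mean in every treated library, and PER1, NR1D1, PER2 and CRY2 lie lowest on the right.

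The other genes of the clock were taken as a list of 29, of which 26 were tested. At 500 µg/mL 1 rose and 0 fell, where 5.77% of all genes had an adjusted p under 0.05, so that the count was no higher than the background. As the list was chosen with earlier results of these data known, this is a description. The median of the log2 fold changes was 0.07 over the list and 0.01 over all genes. At 100 and 20 µg/mL 0 passed the test. There, 3 and 2 had an unadjusted p under 0.05, against 11.7% and 7.95% of all genes. The gene that rose was KLF10, a Krüppel-like repressor that is driven by CLOCK and BMAL1. It had 39.8, 41.3 and 41.7 CPM in vehicle and 46.6, 53.7 and 48.4 CPM at 500 µg/mL. Each high library lay above all vehicle libraries, which held for 10.5% of all genes tested. The log2 fold change was 0.27 (SE 0.07, adjusted p = 0.0417), and its adjusted p was under 0.05 in 7 of 21 alternatives.

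Without high replicate 2, 4 of these 26 genes rose at 500 µg/mL and 0 fell, a share below the 18.7% of all genes in that fit. NPAS2, which can take the place of CLOCK beside BMAL1, then rose by 0.39 (adjusted p = 0.00310), and was at 0.24 (adjusted p = 0.339) with that library. The repressor BHLHE41 rose by 0.23 (adjusted p = 0.00789), the kinase subunit CSNK2A1 by 0.22 (adjusted p = 0.0181) and KLF10 by 0.22 (adjusted p = 0.0213). BHLHE41 and KLF10 also rose in that fit at 100 µg/mL (adjusted p = 0.00127 and 0.0146) and at 20 µg/mL (adjusted p = 0.0210 and 0.0492), where 6.87% and 2.03% of all genes were under 0.05. The ratio of NPAS2 to CLOCK was 0.308 ± 0.00461 (SD, n = 3) in vehicle and 0.393 ± 0.0335 (SD, n = 3) at 500 µg/mL.

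Input genes are genes that carry glucocorticoid or immediate early signals, both of which can reset clocks. This list was chosen with earlier results of these data known, so its counts cannot be weighed against the share of all genes. Of the 14 listed, 12 were tested, and 3 rose and 0 fell at 500 µg/mL, against 5.77% of all genes. All 3 were immediate early genes for bZIP factors. At 100 and 20 µg/mL 0 passed the test, and 5 and 3 had an unadjusted p under 0.05, against 11.7% and 7.95% of all genes. ATF3 had 1.82, 2.49 and 2.81 CPM in vehicle and 6.21, 7.15 and 6.36 CPM at 500 µg/mL, a log2 fold change of 1.45 (SE 0.15, adjusted p = 1.06e-04). FOSB rose by 0.81 (adjusted p = 0.0177) and FOS by 0.52 (adjusted p = 0.0246), each with an adjusted p under 0.05 in 16 of 21 alternatives. The median over the 12 genes was 0.31. None of the 5 glucocorticoid responsive genes tested passed. Without high replicate 2, 7 of the 12 rose at 500 µg/mL, namely FKBP5, FOS, FOSB, JUNB, EGR1, NR4A1 and ATF3, against 18.7% of all genes. In that fit FKBP5, FOS and EGR1 rose at 100 µg/mL, against 6.87% of all genes, and EGR1 rose at 20 µg/mL (adjusted p = 0.0368), against 2.03%. FKBP5, a glucocorticoid receptor co-chaperone gene, was at 0.24 (adjusted p = 0.0116) at 500 µg/mL in that fit and at 0.20 (adjusted p = 0.133) with all libraries.

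**Figure D4:**
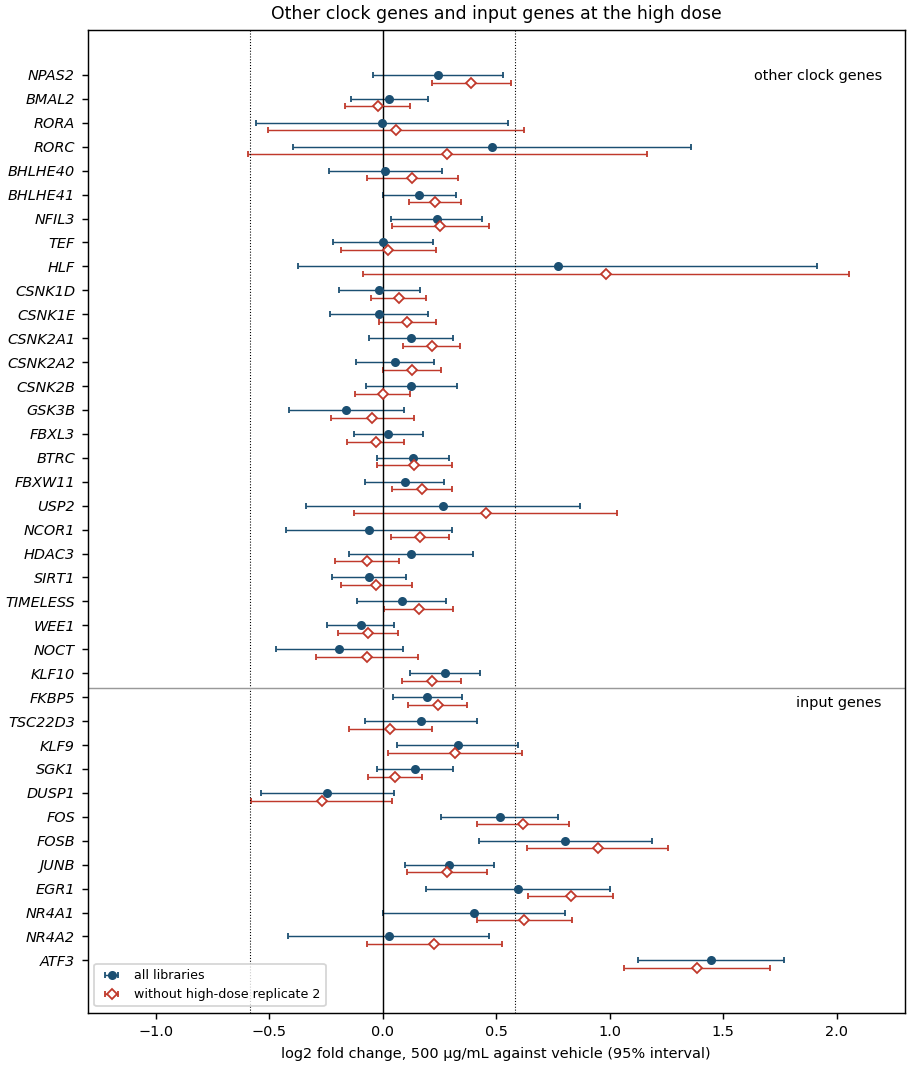
Log2 fold change at 500 µg/mL against vehicle (horizontal axis) with its 95% interval for the 26 other clock genes and the 12 input genes tested, with dotted lines at a fold of 1.5. Filled circles use all libraries and open diamonds leave out high-dose replicate 2, and ATF3 lies highest at 1.45.

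The genes whose pattern was most like that of BMAL1 were RBBP8, PRKD3 and CPT1A. Likeness was the root mean square difference of log2 CPM, each gene centred on its own mean, over the 12 libraries and among 10583 candidate genes. It was 0.0825 for RBBP8, 0.0832 for PRKD3 and 0.0842 for CPT1A, where the root mean square of BMAL1 about its own mean was 0.184. The log2 fold changes of these genes at 500 µg/mL were 0.32, 0.39 and 0.28. Their adjusted p values in the quasi-likelihood test were 0.0291, 0.00261 and 0.0643, so that CPT1A did not pass. As these genes were picked for their likeness to BMAL1 in the same libraries, their rise was built into the choice. Their p values are therefore a description only.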

How the data were processed

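Total RNA was extracted and made into 12 mRNA sequencing libraries. The deposited values are expected counts estimated by RSEM, not normalized. By the submitters' processing notes, the authors used FastQC 0.11.9, Trim Galore 0.6.5, STAR 2.7.3a and RSEM 1.3.3 on GRCh38. The kit was directional, and the RSEM strand setting is not given in the sources used here. A protocol text in the labels describes an extract of Poria cocos, whereas sample titles give Aconitum carmichaeli Debeaux, and the titles were used.

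Expected counts were rounded and tested with the quasi-likelihood test of edgeR 4.0.16 in R 4.3.3 (filterByExpr, TMM, robust), with the 4 groups of all 12 libraries in 1 fit. Benjamini–Hochberg adjustment covered the 15374 genes tested. A gene was called at a fold over 1.5 with an adjusted p under 0.05. The SE came from the F statistic. Log2 CPM used a prior count of 2. Alternatives changed the scaling, the filter on low counts, the tool (DESeq2 1.42.0), the groups fitted, the replicate block and the libraries left out. The fits were also tested on simulated data, in which no library stood apart, unlike in these data. Coordinates are from GENCODE 44, in which 98.1% of the IDs with a count were found.

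All 10 clock genes are named. Genes of the other lists are named if the adjusted p was under 0.05, and the 3 genes most like the clock gene with the smallest p. Members and lists were chosen with earlier results of these data known.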

Additional observations from a re-analysis of the deposited data

How the results depend on the processing

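Without a minimum fold, 1 clock gene was called at 500 µg/mL in place of 0, and 887 of all genes in place of 451. With no filter on low counts, or with vehicle and 1 dose fitted alone by edgeR or DESeq2, 0 clock genes had an adjusted p under 0.05 at 500 µg/mL in place of 1. Leaving out 1 library gave 0 to 2 at 500 µg/mL, 0 to 1 at 100 µg/mL in place of 0, and 0 to 2 in the trend in place of 1. The correction for transcript length and GC content, added after seeing the data, gave 2 in the trend.

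Of all genes, edgeR on vehicle and 1 dose called 172 at 500 µg/mL, 191 at 100 µg/mL (as reported 104) and 51 at 20 µg/mL (as reported 17). DESeq2 on vehicle and 1 dose called 164 at 100 µg/mL and 62 at 20 µg/mL. At 20 µg/mL, no filter gave 34, DESeq2 on all libraries 48 and the correction for length and GC content 40. In the trend (as reported 882), DESeq2 gave 1391 and the correction 1944. Leaving out 1 library gave 310 to 768 at 500 µg/mL, 52 to 249 at 100 µg/mL, 10 to 109 at 20 µg/mL and 452 to 2744 in the trend, each highest without high replicate 2.

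Libraries with the same replicate number did not deviate together: their correlations ran from −0.495 to 0.372, with a median of −0.0778 over 18 pairs. With the replicate number as a block, 1 clock gene, BMAL1, had an adjusted p under 0.05 at 500 µg/mL (0.0494), and the block changed no clock gene call. DBP and PER1 had the fewest counts in a library, 79 and 106 in their lowest. The SE of PER1 at 500 µg/mL was 0.19 with all libraries and 0.09 without high replicate 2.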
